A study of Mus musculus with 12 samples.

Results

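Aminoacyl-tRNA synthetases are the enzymes that join each amino acid to its transfer RNA. Their genes were followed here in 2-cell mouse embryos, collected in the middle of that stage. The members were 36 listed genes, found among the probe sets of the array by the platform's gene symbols, and each was read from its brightest probe set. Of the 36 genes, 35 were measured, among 18163 named genes in all. They comprise 19 cytosolic and 16 mitochondrial enzymes with 71 probe sets, of 44937 tested. Dars, the cytosolic aspartyl-tRNA synthetase, had no probe set named for it alone and is not analysed here.

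Expression was measured on 12 Affymetrix Mouse Genome 430 2.0 arrays in 4 groups of 3. Oct4-MO embryos and Ccna2-MO embryos received a morpholino (MO), an antisense oligonucleotide that blocks translation, against Oct4 or Ccna2 by injection into the cytoplasm at the 1-cell stage, at 0.6 mM in both labels (the study's methods give a higher concentration for Ccna2-MO). Each injected pool had its own pool of uninjected embryos, cultured in parallel and left without injection, which gives the uninjected embryos of the Oct4-MO experiment and those of the Ccna2-MO experiment. All embryos came from wild type F1 (C57BL6xDBA/2) females of 3-5 weeks, superovulated and mated with wild type males, and were collected 43 h after the hCG injection that triggers ovulation. Each array was made from a pool of 20 embryos, with the RNA of 10 going into 2 rounds of amplification. In the study's design the Ccna2-MO arrays serve as the injected control of the Oct4-MO arrays, and no array analysed here is of an MO without a mouse target. Injection and knockdown therefore cannot be told apart in a comparison with uninjected embryos. An MO leaves its target transcript in place, and the transcripts of Oct4 and Ccna2 are therefore no check of the knockdown.

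A synthetase activates its amino acid with ATP and transfers it to the tRNA, and the accuracy of this step sets the accuracy of translation. Most amino acids have one enzyme in the cytosol and another in mitochondria. Both are encoded in the nucleus, and the mitochondrial one serves the few proteins translated inside the organelle. In the cytosol, several synthetases and 3 scaffold proteins are held together in the multi-tRNA synthetase complex. At the 2-cell stage the mouse embryo is changing from maternal transcripts to its own, and either source could supply the transcripts measured here.

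The arrays were alike in their general level. Their median values ran between 22.7 and 25.5, and 39.3 to 42.7% of the probe sets of an array lay under 16, where signal and background are hard to separate. All 10 measured oocyte and early embryo markers were present, with summed values of 13944 to 17842. Single markers differed all the same. Zar1 had 309, 302 and 297 in Oct4-MO embryos, against 96.9, 62.3 and 61.6 in their uninjected embryos. In Ccna2-MO embryos it had 196, 551 and 430, against 36.1, 73.3 and 105 in their uninjected embryos. Gdf9 was also higher and Dppa3 lower on every injected array, in both experiments. The 3 measured markers of 2-cell genome activation summed to 4708 to 5578 in Oct4-MO embryos, against 4541 to 5057 in their uninjected embryos. In Ccna2-MO embryos they summed to 4327 to 5545, against 4588 to 6315. These sums hide opposite moves. Eif1a had 596, 424 and 384 in Oct4-MO embryos, against 613, 665 and 842 in their uninjected embryos. Tcstv1 had 2751, 2773 and 3045 in Oct4-MO embryos, against 2391, 2236 and 2418. In the Ccna2-MO experiment the groups overlapped for both genes. The 5 blastocyst markers summed to 207 to 337 in Oct4-MO embryos, against 158 to 218. In Ccna2-MO embryos they summed to 156 to 248, against 149 to 254. The 8 measured cumulus and granulosa cell markers summed to 54.0 to 168, and 2 of them lay under 16 on all arrays. Summed spermatozoa markers (Prm1, Prm2 and Tnp1) were 259 to 317 in Oct4-MO embryos, against 181 to 246 in their uninjected embryos, and 176 to 258 in Ccna2-MO embryos, against 154 to 207 in theirs. Most of the sum was Prm1, at 212, 225 and 260 in Oct4-MO embryos, against 159, 182 and 140 in their uninjected embryos. Prm2 went the other way there, with at most 22.2 in Oct4-MO embryos, against at least 22.6 in their uninjected embryos. The part of these in the results below was not tested. The RNA was amplified and the arrays normalized, so a value is relative to the other transcripts of its pool. Since a pool of embryos was lysed whole, a change in some embryos and a smaller change in all of them cannot be told apart.

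Values are the authors' normalized intensities on a linear scale, given in the order of replicates 1, 2 and 3. Fold changes are differences of log2(value + 16) between injected and uninjected embryos, with their standard errors (SE), and a gene passed when its limma p, adjusted by Benjamini-Hochberg over all 44937 probe sets, was under 0.05. Of the 35 genes, 26 were above 16 on every array (16 cytosolic and 10 mitochondrial). The other 9 lay under 16 on at least 1 array: Farsa, Vars and Yars of the cytosol, and Hars2, Mars2, Nars2, Rars2, Sars2 and Vars2 of mitochondria.

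Mars2 and Rars were the synthetase genes that passed. Mars2, which encodes the mitochondrial methionyl-tRNA synthetase, was lower in both knockdowns and passed in Ccna2-MO embryos and in the average of the knockdowns. Rars, the cytosolic arginyl-tRNA synthetase, was lower in both by about the same amount and passed in the average alone. For most other synthetases, in the cytosol and in mitochondria alike, the 95% interval of the log2 fold change included 0. In Oct4-MO embryos 0 of 35 passed in limma, where 0.0734% of all probe sets passed. At an unadjusted p under 0.05, 3 of the 35 were higher and 5 lower (4.66% and 5.96% of all genes). In Ccna2-MO embryos 1 of 35 passed, on the lower side, where 0.748% of all probe sets passed and 0.409% were lower. Unadjusted, 2 were higher and 5 lower (8.22% and 8.5% of genes). In the average of the knockdowns 2 of 35 passed, both lower, where 2.32% of all probe sets passed and 1.48% were lower. Unadjusted, 4 were higher and 5 lower (8.52% and 10.2% of genes). These counts rest on few genes, and whether they set the synthetases apart from other genes was not tested.

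Mars2 (probe set 1436777_at; chr1:55237177-55240058 in GRCm38.p6) makes the methionyl-tRNA with which mitochondrial translation starts and elongates. It had values of 4.70, 6.64 and 5.17 in Oct4-MO embryos, against 35.7, 61.3 and 81.0 in the uninjected embryos of that experiment. In Ccna2-MO embryos the values were 5.07, 8.21 and 22.5, against 65.7, 80.2 and 55.3 in their uninjected embryos. All 6 injected arrays were thus below all 6 uninjected ones, and 5 of the injected arrays were under 16. The log2 fold change was -1.76 (SE 0.30, adjusted p = 0.0644) in Oct4-MO embryos, which did not pass, and -1.61 (SE 0.30, adjusted p = 0.0369) in Ccna2-MO embryos, which passed. In the average of the knockdowns Mars2 fell by 1.69 (SE 0.21, adjusted p = 0.00488). The 2 knockdowns differed by -0.15 (95% interval -1.06 to 0.76).

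The call in Ccna2-MO embryos was not a firm one. With the paired pools as a replicate block its adjusted p was 0.0739 (0.146 in Oct4-MO embryos), and the average still passed at 0.0203. It was also lost when any 1 of 8 arrays was left out. Within the Ccna2-MO experiment the adjusted p was then 0.0751 and 0.112 for injected replicates 1 and 2, and 0.120, 0.0829 and 0.0787 for the uninjected replicates in turn. Within the Oct4-MO experiment, whose arrays enter only the shared spread, it was 0.0561 and 0.0540 for injected replicates 2 and 3 and 0.0531 for the uninjected replicate 2. The average passed in all 20 alternatives computed for it. The size of the change depends on the constant added before log2, since the injected values are dim: in Ccna2-MO embryos it was -2.62 with 1 added and -0.79 with 64 added. A second Mars2 probe set, 1447378_at, was under 16 on all 12 arrays, with 4.39 to 13.3 in injected and 4.72 to 10.2 in uninjected embryos. It showed log2 fold changes of 0.06 in Oct4-MO embryos and 0.12 in Ccna2-MO embryos and gives no measure of the gene at this brightness.

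**Figure D1:**
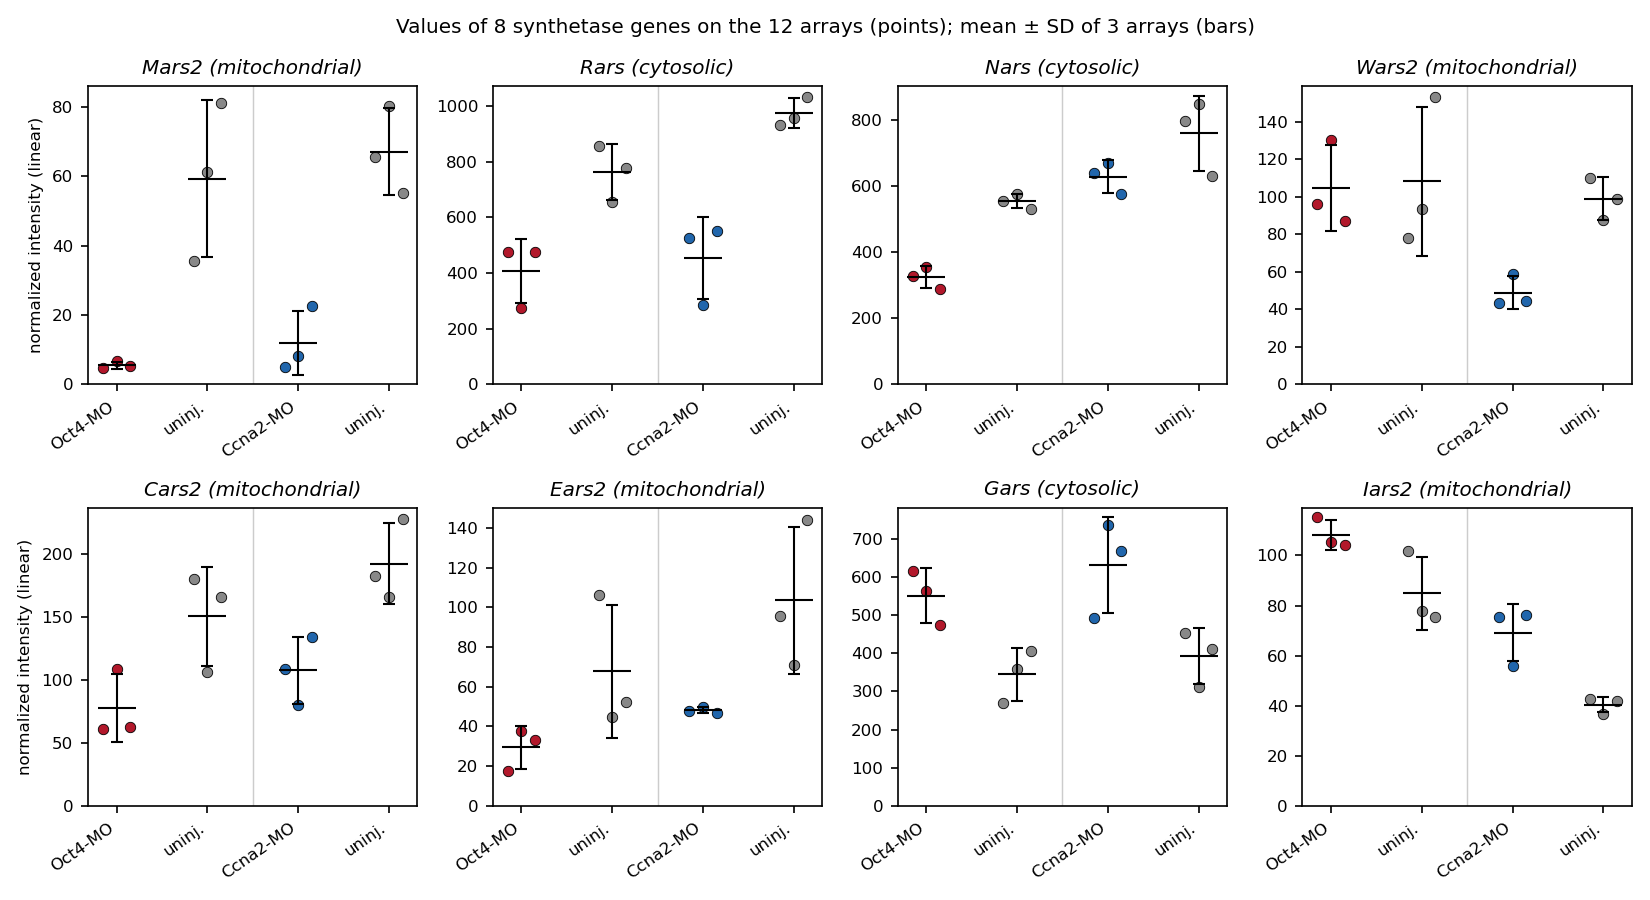
Normalized intensity (linear scale, vertical axis from 0) of 8 synthetase genes on each array, for Oct4-MO embryos (red), Ccna2-MO embryos (blue) and the uninjected embryos of each experiment (grey), with the mean and SD of 3 arrays as bars. For Mars2 the 6 injected arrays lie between 4.70 and 22.5 and the 6 uninjected ones between 35.7 and 81.0, whereas Wars2 is apart from its uninjected arrays in Ccna2-MO embryos only.

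Rars (1416312_at; chr11:35808381-35834528) is the arginine enzyme of the multi-tRNA synthetase complex and was bright on every array. It had values of 475, 274 and 474 in Oct4-MO embryos, against 857, 657 and 777 in their uninjected embryos. In Ccna2-MO embryos the values were 525, 283 and 552, against 932, 959 and 1034 in their uninjected embryos. Again every injected array was below every uninjected one, and replicate 2 was the lowest of both injected groups. The log2 fold change was -0.91 (SE 0.27, adjusted p = 0.279) in Oct4-MO embryos and -1.13 (SE 0.27, adjusted p = 0.0816) in Ccna2-MO embryos, and neither passed. In the average Rars fell by 1.02 (SE 0.19, adjusted p = 0.0213, and 0.0263 with the replicate block). This call was lost when an uninjected replicate 1 or 3 was left out, at 0.0723 and 0.0662 for those of the Oct4-MO experiment and at 0.0520 and 0.0573 for those of the Ccna2-MO experiment. The knockdowns differed by 0.22 (95% interval -0.62 to 1.06), and the array has only 1 probe set for the gene.

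Nars (1428666_at; chr18:64499655-64516515), the cytosolic asparaginyl-tRNA synthetase, had values of 329, 357 and 289 in Oct4-MO embryos, against 557, 575 and 532 in their uninjected embryos. The groups were apart and each was tight, yet the log2 fold change of -0.75 (SE 0.18, adjusted p = 0.158) did not pass. In Ccna2-MO embryos Nars had 641, 672 and 576, against 799, 850 and 632 in their uninjected embryos, where the groups overlapped (-0.26, SE 0.18, adjusted p = 0.571). The difference between the knockdowns was -0.49 (95% interval -1.04 to 0.06, adjusted p = 0.771). Its other probe set, 1452866_at, showed -0.16 in Oct4-MO embryos and -0.17 in Ccna2-MO embryos, both with an SE of 0.48. All 6 arrays of the Oct4-MO experiment had less Nars signal than all 6 of the Ccna2-MO experiment, a pattern that 1.35% of genes share.

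Gars (1423784_at; chr6:55038001-55079504), the glycyl-tRNA synthetase, is one of few synthetase genes whose product serves both the cytosol and mitochondria, and it lay on the higher side. It had values of 616, 563 and 474 in Oct4-MO embryos, against 268, 360 and 405 in their uninjected embryos. In Ccna2-MO embryos it had 492, 736 and 667, against 454, 311 and 411 in their uninjected embryos. Both injected groups were above their uninjected groups without overlap. The log2 fold change was 0.66 in Oct4-MO embryos (SE 0.24, adjusted p = 0.381) and 0.66 in Ccna2-MO embryos (SE 0.24, adjusted p = 0.219), with an adjusted p of 0.0602 in the average, and none of these passed.

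Wars2 (1429279_at; chr3:99140107-99221230), the mitochondrial tryptophanyl-tRNA synthetase, had values of 43.2, 59.0 and 44.5 in Ccna2-MO embryos, against 110, 87.5 and 99.0 in their uninjected embryos. In Oct4-MO embryos it had 96.2, 130 and 87.3, against 78.2, 93.7 and 153 in their uninjected embryos. The groups were apart in the Ccna2-MO experiment and overlapped in the Oct4-MO experiment. The log2 fold change was -0.83 (SE 0.29, adjusted p = 0.208) in Ccna2-MO embryos and -0.02 (SE 0.29, adjusted p = 0.996) in Oct4-MO embryos, the second of which turned positive under other scalings. With a difference of 0.81 (95% interval -0.07 to 1.70, adjusted p = 0.767), the knockdowns were not shown to differ, although no other synthetase had a smaller p for this difference. In that comparison 0 of 35 synthetases passed in limma, where 0.00223% of all probe sets passed, and 0 had an unadjusted p under 0.05, as 3.19% of genes had on the higher and 3.93% on the lower side.

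A further 5 genes were singled out after their values were seen, and none of them passed in any comparison. Ears2 encodes the mitochondrial glutamyl-tRNA synthetase, which also charges the glutamine tRNA of mitochondria before the amino acid is converted. It had 17.4, 37.5 and 33.3 in Oct4-MO embryos, against 106, 44.7 and 52.1 in their uninjected embryos, and 47.8, 49.9 and 47.0 in Ccna2-MO embryos, against 95.8, 70.9 and 144 in theirs. On the brightest of its 4 probe sets the injected arrays were all below, with log2 fold changes of -0.84 and -0.85 (SE 0.34 each) in Oct4-MO and Ccna2-MO embryos. Cars2, the mitochondrial cysteinyl-tRNA synthetase, had 61.3, 109 and 62.9 in Oct4-MO embryos, against 180, 106 and 166 in their uninjected embryos, and 109, 80.4 and 134 in Ccna2-MO embryos, against 183, 166 and 228 in theirs. Only the groups of the Ccna2-MO experiment were apart, and the log2 fold changes were -0.84 in Oct4-MO embryos and -0.77 in Ccna2-MO embryos (SE 0.31 each).

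Iars2, Lars2 and Wars lay on the higher side. Iars2, the mitochondrial isoleucyl-tRNA synthetase, had 115, 105 and 104 in Oct4-MO embryos, against 102, 77.8 and 75.3 in their uninjected embryos, and 75.3, 56.0 and 76.3 in Ccna2-MO embryos, against 42.7, 36.9 and 41.7 in theirs. Injected arrays were above uninjected ones in both experiments, with log2 fold changes of 0.31 in Oct4-MO embryos and 0.59 in Ccna2-MO embryos (SE 0.24 each). Lars2, the mitochondrial leucyl-tRNA synthetase, had 87.0, 179 and 240 in Oct4-MO embryos, against 61.8, 83.4 and 46.5 in their uninjected embryos. The change of 1.14 had an SE of 0.52, and in Ccna2-MO embryos, where the groups overlapped, it was 0.34 with the same SE. Wars, the cytosolic tryptophanyl-tRNA synthetase, had 143, 203 and 271 in Oct4-MO embryos, against 116, 121 and 125 in their uninjected embryos, which were apart (0.66, SE 0.27), while its groups overlapped in the Ccna2-MO experiment (0.32, SE 0.27).

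The other 25 synthetases stayed far from the threshold. The 15 cytosolic ones ran between -0.77 (Mars, the methionyl enzyme) and 0.62 (Sars, the seryl enzyme) in Oct4-MO embryos, with no adjusted p below 0.655. In Ccna2-MO embryos they ran between -0.57 (Lars, the leucyl enzyme) and 0.40 (Farsb, the beta subunit of the phenylalanyl enzyme), with no adjusted p below 0.458. The 10 mitochondrial ones ran between -0.87 (Yars2, the tyrosyl enzyme) and 0.31 (Pars2, the prolyl enzyme) in Oct4-MO embryos, with no adjusted p below 0.682. In Ccna2-MO embryos they ran between -0.47 (Vars2, the valyl enzyme) and 0.37 (Aars2, the alanyl enzyme), with no adjusted p below 0.685. Farsa, the alpha subunit that pairs with Farsb, had -0.27 in Oct4-MO embryos and 0.10 in Ccna2-MO embryos, where Farsb had 0.43 and 0.40, and none of these passed.

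Of the cytosolic enzymes, 12 of 19 lay below 0 in Oct4-MO embryos, with a median log2 fold change of -0.09, and 11 of 19 in Ccna2-MO embryos, with a median of -0.10. Over all genes the share below 0 was 48.5% in Oct4-MO embryos and 46.8% in Ccna2-MO embryos, and the medians were 0.01 and 0.03. Of the mitochondrial enzymes, 9 of 16 lay below 0 in Oct4-MO embryos (median -0.01) and 8 of 16 in Ccna2-MO embryos (median -0.06). These medians lie within the range that leaving out 1 array gives, which crossed 0 for both compartments in both knockdowns. Among genes above 16 on every array the 16 cytosolic ones had medians of -0.10 in Oct4-MO embryos and -0.22 in Ccna2-MO embryos, whereas the 10 mitochondrial ones had medians above 0, at 0.10 and 0.17, with 4 of 10 below 0 in each knockdown.

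**Figure D2:**
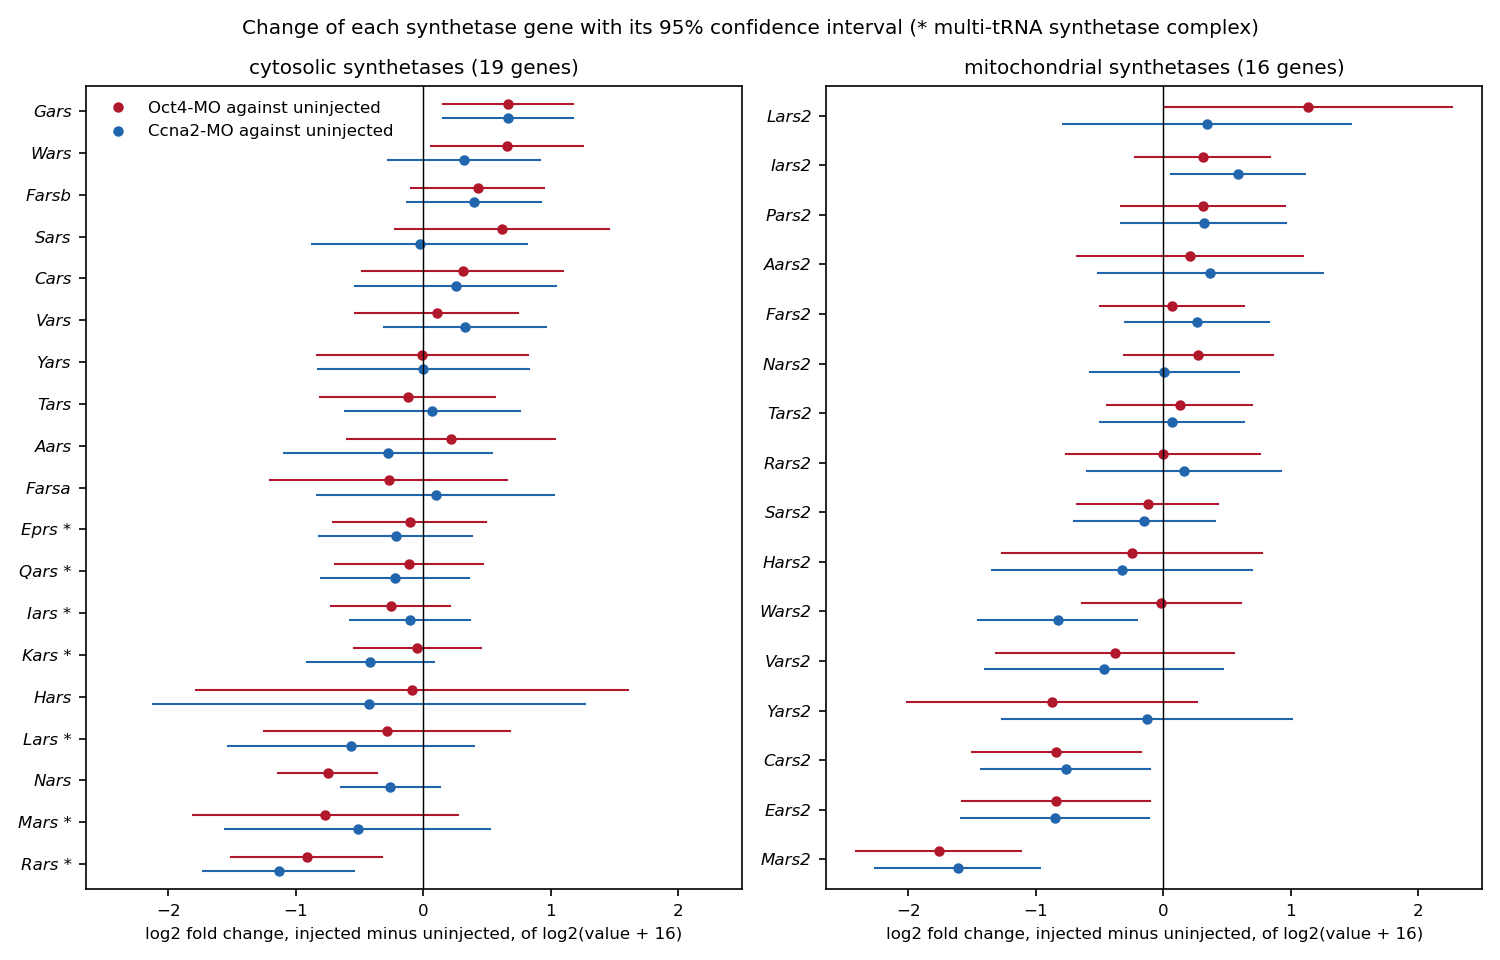
Log2 fold change of each synthetase gene with its 95% confidence interval from limma, for Oct4-MO (red) and Ccna2-MO embryos (blue) against their uninjected embryos, cytosolic genes left and mitochondrial genes right, ordered by the average of the knockdowns. Asterisks mark the multi-tRNA synthetase complex; Gars and Lars2 stand at the higher ends, and Rars and Mars2 at the lower ends.

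The precision differed widely among members. The SE of a change was smallest for Nars, at 0.18, and largest for Hars, the cytosolic histidyl-tRNA synthetase, at 0.78. Hars had values of 1013, 50.3 and 408 in Ccna2-MO embryos, against 266, 254 and 900 in their uninjected embryos, so that its replicates spread more widely than its groups differed. The 95% interval lay wholly within a log2 change of 1 in either direction for 8 of 19 cytosolic and 8 of 16 mitochondrial genes in Oct4-MO embryos. In Ccna2-MO embryos this held for 11 of 19 cytosolic and 6 of 16 mitochondrial genes. For the others a change of that size was not excluded by the interval.

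On their brightest probe sets, the measured synthetases of the multi-tRNA synthetase complex had log2 fold changes below 0, most of them small. All 7 (Eprs, the fused glutamyl and prolyl enzyme; Iars, Kars, Lars, Mars, Qars and Rars, for isoleucine, lysine, leucine, methionine, glutamine and arginine) were below 0 in Oct4-MO embryos, as were 48.5% of all genes, and in Ccna2-MO embryos, as were 46.8%. Their median was -0.25 in Oct4-MO embryos, with a range of -0.91 to -0.05, and -0.41 in Ccna2-MO embryos, with a range of -1.13 to -0.10. The 12 cytosolic enzymes outside the complex had medians of 0.16 in Oct4-MO embryos and 0.08 in Ccna2-MO embryos. Of the 7, 0 passed in either knockdown in limma (1 lower unadjusted in each, Rars, beside 5.96% and 8.5% of all genes) and 1 in the average, again Rars (2.32% of probe sets). Under some alternatives single members turned positive. The highest values were 0.08 for Eprs and Kars and 0.06 for Lars in Oct4-MO embryos, and 0.32 for Qars and 0.34 for Iars in Ccna2-MO embryos. Eprs and Qars have 4 probe sets each and Iars has 2, and the alternatives include the mean over the probe sets of a gene. Kars and Lars have 1 probe set each, and both turned positive in Oct4-MO embryos when replicate 2 of that group was left out. Eprs did so without replicate 1 of the uninjected embryos of that experiment. The shared direction therefore holds for the brightest probe sets with all 12 arrays, and depends on that choice and on single arrays. The grouping was made from textbook knowledge, and its direction was not tested. Of the 3 scaffold proteins of the complex, Aimp1, Aimp2 and Eef1e1, 0 passed in any comparison in limma (1 lower unadjusted in Oct4-MO embryos and 0 in Ccna2-MO embryos), with log2 fold changes of -0.57 to 0.17 in Oct4-MO and -0.46 to -0.03 in Ccna2-MO embryos.

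The knockdowns were set side by side next, since their control arrays are separate. The direction of the change was the same in both for 29 of 35 synthetases (82.9%), against 59.4% of all genes. Of these, 17 were below 0 in both (27.3% of all genes) and 12 above (32.0%). Arrays of the injected embryos were all below those of the uninjected embryos in 4 of 35 synthetases in the Oct4-MO experiment (9.57% of all genes) and in 6 of 35 in the Ccna2-MO experiment (9.29%). They were all above in 4 of 35 in the Oct4-MO experiment (9.21%) and in 2 of 35 in the Ccna2-MO experiment (9.89%). On their brightest probe sets, Ears2, Mars2 and Rars were all below in both, as were 2.5% of all genes. Gars and Iars2 were all above in both, as were 1.82%. Of the 35, 0 were above in one and below in the other, against 0.529% of all genes. What injection itself contributes to these shared directions was not tested.

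**Figure D3:**
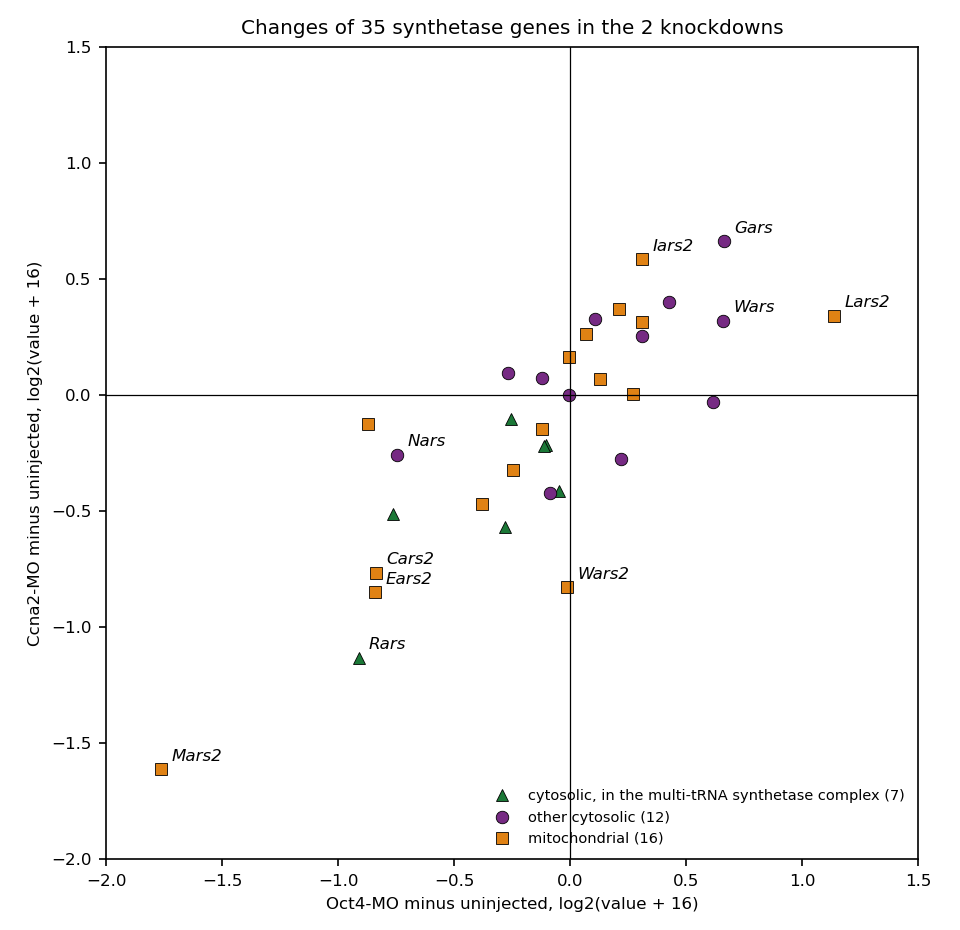
Log2 fold change of the 35 synthetase genes in Oct4-MO embryos (horizontal) and in Ccna2-MO embryos (vertical), each against its own uninjected embryos, by compartment and complex. The points for 29 genes lie in the quadrants of equal direction, Mars2 is the farthest from the centre, and Wars2 lies on the vertical axis.

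The experiments also differed in level where nothing was injected. In the uninjected embryos of the Oct4-MO experiment, 7 of 35 synthetases (Aars, Iars, Kars, Mars, Nars, Rars and Rars2) were lower on every array than in those of the Ccna2-MO experiment, as were 10.4% of all genes, and 2 (Iars2 and Tars2) were higher, as were 12.3%. Iars had 1340, 773 and 1217 in the uninjected embryos of the Oct4-MO experiment and 1953, 2034 and 2016 in those of the Ccna2-MO experiment. Rars2, the mitochondrial arginyl-tRNA synthetase, had 11.9, 8.09 and 2.76 in the uninjected embryos of the Oct4-MO experiment and 43.6, 16.5 and 48.7 in those of the Ccna2-MO experiment. The experiment and any batch of embryos or hybridisation cannot be told apart in these values. Comparisons above were therefore made within an experiment.

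**Figure D4:**
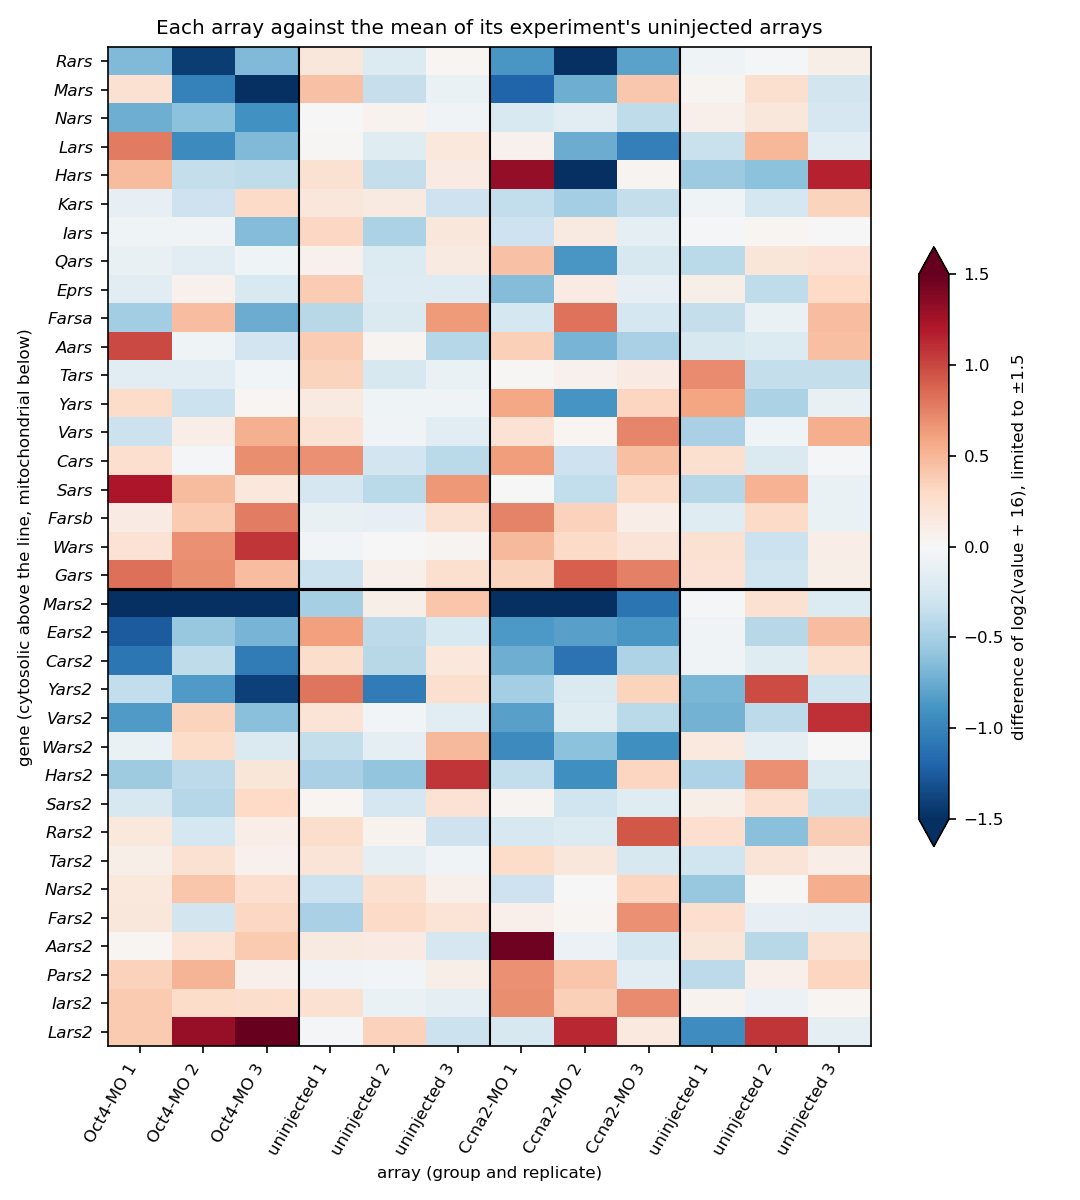
Each of the 12 arrays (columns, by group and replicate) against the mean of the uninjected arrays of its experiment, as a difference of log2(value + 16) limited to 1.5 in either direction, for the 19 cytosolic (above the line) and 16 mitochondrial genes (below). Mars2 and Rars are blue on all 6 injected arrays and Gars is red on all 6, whereas Hars and Lars2 vary between replicates of one group.

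Probe sets of one gene did not always agree. Of 23 genes with several probe sets, all pointed the same way in 12 in Oct4-MO embryos, in 15 in Ccna2-MO embryos and in 18 in the average. Among probe sets with a mean log2(value + 16) of at least 6, 13 genes had several, and these pointed the same way in 9 in Oct4-MO embryos, in 11 in Ccna2-MO embryos and in 13 in the average. Cars2 had a second such probe set with -0.63 in Oct4-MO embryos and -0.82 in Ccna2-MO embryos. The size of the Ears2 change was less steady over the alternatives, which include the mean over its 4 probe sets. It ran between -1.14 and -0.16 in Oct4-MO embryos and between -1.06 and -0.18 in Ccna2-MO embryos. Of all 71 probe sets, those that passed were the Mars2 one in Ccna2-MO embryos and those of Mars2 and Rars in the average. The brightest probe set of Aars, of type _s_at, and those of Fars2, Farsb, Qars and Yars2, of type _x_at, can also bind related transcripts.

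Start-site windows of the members were read for 4 short motifs, chosen after the data had been seen, to show what the members share in sequence. RefSeq windows (GRCm38.p6, 250 bases before to 50 after the start site) matched 27 of the 36 listed genes. The core of the amino acid response element, TGATGNAA on either strand, through which the transcription factor Atf4 raises synthetase genes when amino acids run short, was in 5 of 27 genes (18.5%), against 3.97% of all 32851 windows. All 5 were cytosolic (5 of 13 with a window) and 0 of 14 mitochondrial genes held it. The Nrf1 motif, sought as 10 letters with any base at 1 of them, on either strand, and named for a factor known for nuclear genes of mitochondrial proteins, was in 5 of 27 (18.5%; Farsb, Iars2, Kars, Mars2 and Tars), against 4.60% of windows. It was in 3 of 13 cytosolic and 2 of 14 mitochondrial genes, and so was not confined to mitochondrial enzymes. The octamer bound by Oct4, ATGCAAAT, was in 0 of 27 (1.74% of windows), and the cAMP response element, TGACGTCA, in 0 of 27 (1.79%). Matches to the amino acid response core in Gars, Iars, Tars and Yars are shown because they let the changes of genes with this core be set side by side. The Nrf1 match of Mars2, 1 of the 2 genes that passed, comes after them. Each is 30 bases on the strand of its gene, with the match in capitals (its reverse complement where it lies on the other strand).
Gars, chr6:55037960-55037989, plus strand: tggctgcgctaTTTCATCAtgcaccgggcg
Iars, chr13:49682126-49682155, plus strand: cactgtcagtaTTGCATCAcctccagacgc
Tars, chr15:11399655-11399684, minus strand: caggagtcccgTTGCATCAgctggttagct
Yars, chr4:129189895-129189924, plus strand: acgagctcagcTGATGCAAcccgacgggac
Mars2, chr1:55237168-55237197, plus strand: accgtccagctGCGCACGCGCcctttcccg

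The genes with the amino acid response core did not share a direction. Gars had a log2 fold change of 0.66 in both knockdowns, but Aars, the alanyl enzyme, had 0.22 in Oct4-MO embryos and -0.28 in Ccna2-MO embryos, and Iars had -0.25 in Oct4-MO embryos and -0.10 in Ccna2-MO embryos. Tars, the threonyl enzyme, had -0.12 in Oct4-MO embryos and 0.07 in Ccna2-MO embryos, and Yars, the tyrosyl enzyme, had -0.01 in Oct4-MO and less than 0.01 in Ccna2-MO embryos. None of the 5 passed. A match is a description of the letters and not a site in use, and windows without a match say nothing of the factor.

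Partners of the synthetases were counted from lists of related genes. In the amino acid response list (Atf4 and 22 other measured genes), 0 of 23 passed in Oct4-MO embryos in limma, where 0.0734% of all probe sets passed. Unadjusted, 3 were higher and 5 lower there (4.66% and 5.96% of all genes). In Ccna2-MO embryos 1 of 23 passed (0.748% of probe sets), with 2 higher and 0 lower unadjusted (8.22% and 8.5% of genes). In the average 2 of 23 passed (2.32% of probe sets), and each gene that passed was higher. The median log2 fold change of the list was -0.06 in Oct4-MO embryos and 0.21 in Ccna2-MO embryos, and that of all genes 0.01 and 0.03. Mthfd2, a mitochondrial enzyme of one-carbon metabolism, averaged 1673 in Ccna2-MO embryos, against 829 in their uninjected embryos (log2 fold change 0.99, SE 0.14, adjusted p = 0.0140). It averaged 1372 in Oct4-MO embryos, against 993 in their uninjected embryos (0.45, adjusted p = 0.290). Ddit3, a stress-induced transcription factor, was higher in the average (0.91, SE 0.21, adjusted p = 0.0440), with means of 664 in Oct4-MO embryos against 265 in their uninjected embryos, and 408 in Ccna2-MO embryos against 282 in theirs.

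The remaining lists held no gene that passed in either knockdown or their average in limma. Unadjusted, 4.66% of all genes were higher and 5.96% lower in Oct4-MO embryos, and 8.22% and 8.5% in Ccna2-MO embryos. The lists were 10 tRNA charging partners (0 higher and 1 lower unadjusted in Oct4-MO embryos, 1 and 1 in Ccna2-MO embryos), 12 cytosolic elongation and release factors (0 and 1; 2 and 0) and 7 mitochondrial translation factors (1 and 0; 0 and 0). Their median log2 fold changes in Oct4-MO and Ccna2-MO embryos were -0.11 and -0.04 for the charging partners, 0.00 and 0.04 for the cytosolic factors and 0.28 and 0.37 for the mitochondrial factors. Tarsl2, a second cytosolic threonyl-tRNA synthetase outside the member list, was under 16 in the mean of each group and had log2 fold changes of -0.07 in Oct4-MO embryos and -0.06 in Ccna2-MO embryos.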

How the data were processed

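The authors amplified RNA of embryo pools to single-stranded DNA, hybridised it to 12 arrays, normalized them with dChip and deposited 1 intensity per probe set on a linear scale. No source used here gives the dChip version or its expression model. The table held 45001 probe sets, of which 64 array controls were left out. By the platform annotation 34849 had 1 gene symbol, 928 had several and were not named, and 9160 had none. Values were analysed as log2(value + 16) of the deposited intensities. Samples were grouped by their labels.

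R 4.3.3 and limma 3.58.1 were used: 4 group means over all 12 arrays, with eBayes and an intensity trend, and Benjamini-Hochberg adjustment over 44937 probe sets. Before use, the fits were run on simulated arrays with known changes and independent noise, without an effect of pair or experiment. No pass mark was set for that run. Labels give an injected and an uninjected pool of an experiment the same replicate number, and such pools were taken as a pair. Within a pair, the arrays' deviations from the mean of their group correlated by 0.0091 to 0.0830 in the Oct4-MO experiment and by -0.0128 to 0.114 in the Ccna2-MO experiment. The replicate block was an alternative, beside other controls, pseudocounts, filters, scalings, weights, a mean over probe sets, an unpaired t statistic alone and leaving out each array. The study's own ranking, which combines fold change with that statistic and takes a false discovery rate from permutations, was not run.

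The members and lists were chosen with earlier results of these data known. By rule, values per array are given for genes that passed, for the 4 with the smallest p in each knockdown and the 2 in the difference and in the average, and for Nars and Rars, which the study names. This rule gave Gars, Mars2, Nars, Rars and Wars2. Cars2, Ears2, Hars, Iars, Iars2, Lars2, Rars2 and Wars were added after their values were seen. The 3 arrays per group limit the precision, and p-values measure the spread between pools of embryos. Partner lists were compiled from textbook knowledge. Matches are printed for 5 genes only, and 1 of the others is not reported here.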

Additional observations from a re-analysis of the deposited data

How the results depend on the processing

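Over all alternatives run, Mars2 and Rars were lower in both knockdowns and Gars was higher, and the calls moved with the number of probe sets that passed. In Oct4-MO embryos 2 synthetases (Mars2 and Nars) passed with all 6 uninjected arrays as controls, and 1 (Mars2) with 1 added before log2, with the brighter 22469 probe sets or with array weights, against 0. In Ccna2-MO embryos 2 (Mars2 and Rars) passed with the brighter 22469, and 0 with the replicate block, with only the 6 arrays of the comparison, without the intensity trend, with array weights, with probe sets averaged per gene or by an unpaired t statistic, against 1. In the average 6 passed with the brighter 22469 (Cars2, Ears2, Gars, Mars2, Nars and Rars), against 2. Leaving out 1 array gave 0 to 0 in Oct4-MO embryos, 0 to 1 in Ccna2-MO embryos, 0 to 0 for the difference and 1 to 3 in the average. The replicate block changed no other synthetase call. Without 1 array the median of the cytosolic enzymes ran between -0.20 and 0.060 in Oct4-MO and between -0.18 and 0.07 in Ccna2-MO embryos, and that of the mitochondrial enzymes between -0.14 and 0.09 in Oct4-MO and between -0.20 and 0.10 in Ccna2-MO embryos. Values near 0 changed sign. The Wars2 change in Oct4-MO embryos was 0.021 with all 6 uninjected arrays, 0.031 after quantile normalization and 0.041 after median centring, and -0.19 to 0.23 over all alternatives. The Gars difference between the knockdowns, near 0, was 0.0024 with 1 added, 0.049 after quantile normalization and 0.051 after median centring, and -0.17 to 0.15 over all alternatives. Without 1 array the Mars2 difference ran between -0.399 and 0.105 and the Rars difference between -0.0762 and 0.473. The cause of these shifts was not tested. Signal over background limits the 9 genes under 16 on at least 1 array, Mars2 among them. Over all probe sets 33 passed in Oct4-MO embryos, against 4 with the block, 452 with all 6 uninjected arrays, 257 with array weights, 92 in the brighter 22469, 18 with 64 added and 0 with only 6 arrays, without the trend or by an unpaired t statistic. In Ccna2-MO embryos 336 passed, against 124 with the block, 87 with array weights, 711 in the brighter 22469, 3 with only 6 arrays and 0 without the trend or by an unpaired t statistic. In the average 1043 passed, against 1853 in the brighter 22469, and for the difference 1, against 0 with the block, with 64 added, in the brighter 22469 or with probe sets averaged per gene. Leaving out 1 array gave 0 to 87 in Oct4-MO, 17 to 652 in Ccna2-MO embryos, 199 to 1377 in the average and 0 to 3 for the difference.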
